A study of Homo sapiens with 9 samples.

Results

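The comparison described here sets the 3 libraries that carry replicate number 1 against the 3 that carry replicate number 3, across cultures of KGN cells given different amounts of insulin. It uses 6 of the 9 libraries of the study: control 1, lower dose 1 and higher dose 1 on one side, and control 3, lower dose 3 and higher dose 3 on the other. It covers the 12584 of 15983 genes in the count table that had at least 10 counts in 3 or more of these 6 libraries. At the edge of that filter, the 61 genes just inside it (third-highest count 10) had a median of 56 counts summed over the 6 libraries, and the 77 genes just outside it (third-highest count 9) had a median of 51. The comparison was chosen by measured values of these same libraries: in earlier results the summed levels of S phase genes and of epithelial markers were highest in library 1 of each treatment group. All differences between number 1 and number 3 below are therefore a description of the libraries. Genes are called at an adjusted p threshold only to rank and count them, and the calls support nothing beyond that description.

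KGN cells were grown from a human tumour of granulosa cells and serve as a model of the ovarian cells that surround the egg and make oestrogen. All cells were labelled wild type and were fasted for 12 h, then kept for 72 h with solvent (control), with 0.5 µg/ml insulin (the lower dose) or with 1 µg/ml insulin (the higher dose). Each group has 3 libraries of bulk RNA, named here by group and replicate number. The labels give neither what the replicate number marks (a culture, a day, a plate or a sequencing run) nor whether replicates came from separate cultures. What set libraries with number 1 apart from those with number 3 therefore cannot be told apart by its source. The granulosa identity of the line was checked on defining markers: FOXL2, the transcription factor of the granulosa lineage, ran from 24.4 to 29.4 CPM (counts scaled to a common library size) over the 9 libraries, NR5A1, a regulator of steroid-making genes, from 57.7 to 66.0 CPM, and FSHR, the receptor for follicle-stimulating hormone, from 15.2 to 22.2 CPM. LHCGR, the receptor for luteinising hormone, had at most 1 count in a library.

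Cultured cells move through the cell cycle, and a culture with a larger share of cells copying their DNA holds more messenger RNA of the replication machinery. Before S phase, loaders such as ORC, CDC6 and CDT1 place the MCM helicase on replication origins, and then CDC45, the GINS complex and MCM10 turn it into a moving helicase that polymerases follow. E2F transcription factors switch on many of these genes, whereas the genes of mitosis are switched on later through another promoter element, the CHR. The p53 protein and its target CDKN1A, an inhibitor of cyclin-dependent kinases, hold cells back from entering S phase. In bulk RNA, a change in the share of cells in a phase and a change of the RNA per cell cannot be told apart.

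Library totals ran from 18965722 to 20446405 counts, and a count of 0 in the smallest library allows up to 0.158 CPM (3 counts, counting error only). Levels are given as CPM scaled by TMM, which corrects for library composition, and always in the order control, lower dose, higher dose. Differences are log2 fold changes of number 1 over number 3 with their standard error (SE) from edgeR with the treatment group as a block. Lower dose 1 stood apart from the other libraries of its group: chi-square divided by its degrees of freedom, over the counts of all genes, was 7.75 and 8.19 against lower dose 2 and lower dose 3, but 2.17 between lower dose 2 and lower dose 3 themselves. In control the same statistic was 4.31 for number 1 against 2, 6.50 for 1 against 3 and 3.73 for 2 against 3. At the higher dose these values were 3.38, 5.14 and 2.58. In every group the smallest value was that of number 2 against number 3, and both values of number 1 were largest at the lower dose. Results that rest on the lower dose pair are therefore given with and without it.

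Differences between the numbers were small. Among the 10609 genes with a mean of at least 5 CPM, the median absolute difference was 0.06 on the log2 scale and 99% were within 0.34. At an adjusted p under 0.05 (edgeR quasi-likelihood F-test, Benjamini-Hochberg over all 12584 genes) 14 genes were called higher in number 1 (0.111% of those tested) and 3 lower (0.0238%). The sign was the same in all 3 treatment groups for 2004 genes that were higher (15.9%) and 2057 that were lower (16.3%). The 3 libraries numbered 1 lay all above the 3 numbered 3, without overlap, for 1002 genes (7.96%), and all below for 1017 (8.08%). With the lower dose pair left out, 441 of 12451 genes were called higher (3.54%) and 309 lower (2.48%). Without the control pair 2 of 12455 genes were called higher and 0 lower, and without the higher dose pair 18 and 4 of 12434. Each of these fits rests on fewer libraries, which leaves little to estimate the spread from. Their counts of calls are therefore not comparable with those over the 6 libraries. These shares are the background for the counts below, and nothing is read from them, since the same contrast chose the comparison.

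Genes of the replication machinery lay higher in number 1 in each treatment group. All 45 genes of a list of DNA replication and S phase passed the filter, with a median difference of 0.23, against -0.00072 over all genes. Within the treatment groups the list median was 0.22 in control, 0.19 at the lower dose and 0.20 at the higher dose. Of the 45 genes, 42 had a difference above 0, 31 were higher in number 1 in all 3 treatment groups and 25 did not overlap between the numbers. One gene, UHRF1, was called, though not by DESeq2. Without the lower dose pair 21 of the 45 were called higher (46.7%, against 3.54% of all genes in that fit). The list median was then 0.22, beside 0.24 for the interferon list and 0.23 for the epithelial list. The replication list was among those that chose the comparison, so these counts describe the choice.

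**Figure D1:**
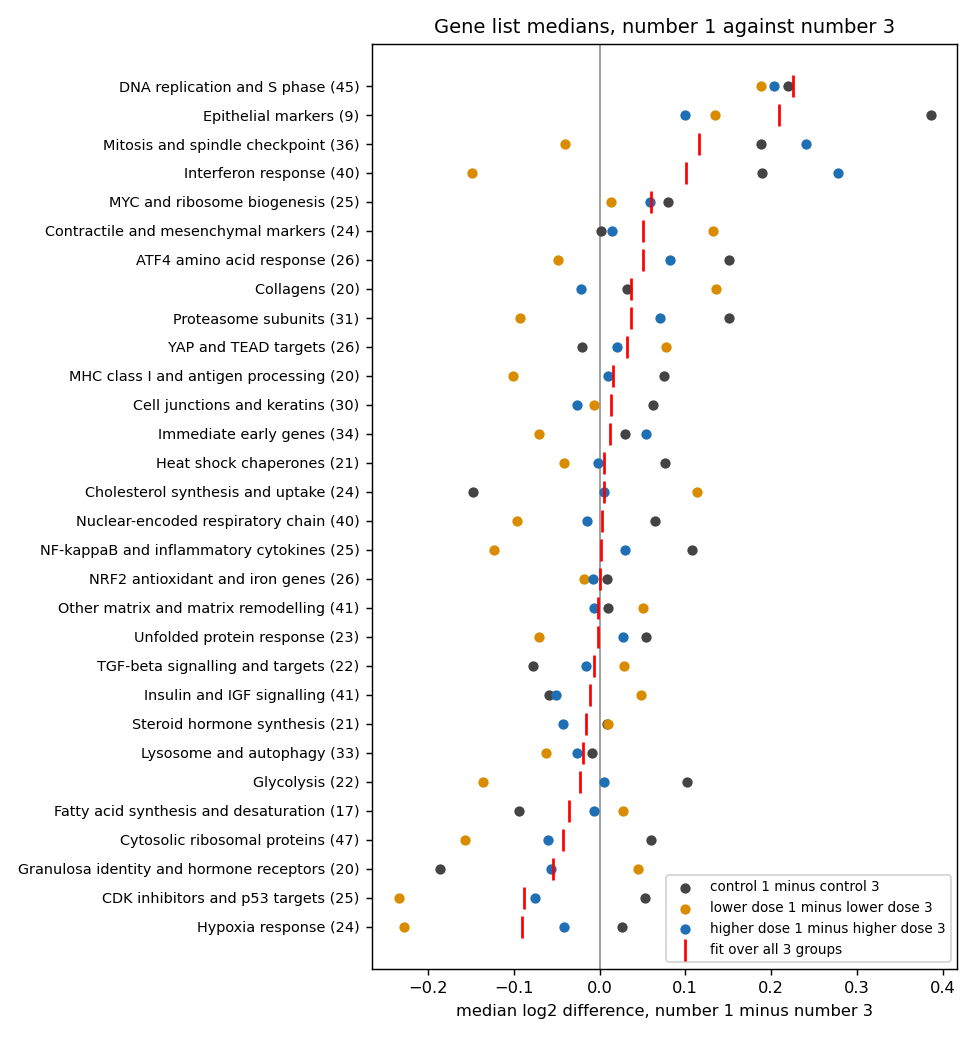
Median log2 difference of number 1 over number 3 (horizontal axis) for each gene list with at least 9 genes kept (number kept in brackets); points show the differences within control, lower dose and higher dose, and the red tick is the fit over all 3 groups. The S phase list lies between 0.19 and 0.22 in all 3 groups, whereas the interferon list lies at 0.19 and 0.28 in control and at the higher dose and at -0.15 at the lower dose.

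The promoters of UHRF1, CDT1, MCM7 and POLE are shown because these genes were higher in number 1 in every treatment group and carry letters that E2F factors are known to bind. Of the genes kept, 10236 had a promoter in the RefSeq table used (GRCh38.p14, 250 bases before to 50 after the start). TTTCCCGC, TTTGCCGC, TTTGGCGC or TTTCGCGC, on either strand, occurred in 5.33% of all these promoters and in 21 of 38 promoters of the replication list (55.3%). Each line gives 100 bases before the start, read 5′ to 3′ on the strand of the gene, with the matching letters in capitals. UHRF1 lies on the plus strand at chr19:4909401-4909500, CDT1 on the plus strand at chr16:88803689-88803788, MCM7 on the minus strand at chr7:100101398-100101497 and POLE on the minus strand at chr12:132687343-132687442.
UHRF1: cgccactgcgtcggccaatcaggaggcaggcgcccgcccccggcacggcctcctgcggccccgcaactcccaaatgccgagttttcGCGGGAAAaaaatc
CDT1: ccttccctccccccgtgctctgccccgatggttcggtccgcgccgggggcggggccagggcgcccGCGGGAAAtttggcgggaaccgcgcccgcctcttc
MCM7: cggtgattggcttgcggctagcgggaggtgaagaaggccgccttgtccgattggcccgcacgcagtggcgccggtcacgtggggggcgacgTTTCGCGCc
POLE: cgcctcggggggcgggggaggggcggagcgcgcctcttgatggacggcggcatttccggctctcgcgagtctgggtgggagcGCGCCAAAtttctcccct
The 21 replication genes with these letters had a median difference of 0.25, and the 17 without them 0.21, so members with and without the letters lay close together. A match in letters is a description of sequence and does not show that a factor binds there.

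Of 10 genes of origin licensing, 9 were higher in number 1 in all 3 groups, with a median of 0.29. CDT1, which brings the MCM helicase to origins, measured 21.8, 26.8 and 24.3 CPM in number 1 and 18.9, 18.9 and 17.4 CPM in number 3 (difference 0.40, SE 0.08). Every library numbered 1 was above every library numbered 3. CDC6, its partner in loading, measured 34.7, 37.4 and 39.9 CPM in number 1 and 29.7, 30.8 and 28.3 CPM in number 3 (0.34, SE 0.07). MCM2, a subunit of the helicase, measured 46.3, 51.8 and 51.1 CPM against 39.1, 41.6 and 40.9 CPM (0.30, SE 0.07). MCM6, another subunit, was the exception: its libraries overlapped, with 37.2, 37.4 and 40.5 CPM in number 1 and 35.2, 33.0 and 41.1 CPM in number 3.

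Of 6 genes that activate the helicase, 4 were higher in number 1 in all 3 groups (median 0.33). MCM10, which helps to start the helicase, had the largest difference of the replication list, 0.51 (SE 0.11), from 12.2, 11.1 and 12.3 CPM in number 1 and 8.04, 8.13 and 8.83 CPM in number 3. GINS1, a subunit of the moving helicase, measured 19.6, 19.7 and 20.2 CPM against 13, 16.6 and 16.7 CPM, with control 3 the lowest library. The 12 genes of polymerases, the sliding clamp and its loader had a lower median, 0.17, and 8 were higher in all 3 groups. POLD1, the catalytic subunit of polymerase delta, measured 58.3, 70.0 and 58.7 CPM in number 1 and 48.2, 53.4 and 52.3 CPM in number 3. PCNA, the clamp itself and a common marker of dividing cells, measured 104, 101 and 106 CPM against 94.5, 107 and 92.3 CPM and overlapped between the numbers.

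FEN1 and LIG1, which trim and join the fragments of the lagging strand, were both higher in number 1 without overlap, with differences of 0.22 (SE 0.07) and 0.26 (SE 0.07). Among 4 genes of nucleotide supply, RRM2, the regulated subunit of ribonucleotide reductase, measured 76.1, 78.7 and 76.3 CPM in number 1 and 64.0, 65.0 and 66.2 CPM in number 3, whereas RRM1, the partner subunit, measured 125, 106 and 125 CPM against 112, 123 and 109 CPM. The low value of RRM1 within number 1 was that of lower dose 1. The 4 regulators of S phase entry (E2F1, E2F2, CCNE1 and CCNE2) had a median of 0.10, and none of them was free of overlap. CCNE1, a cyclin that starts S phase, measured 9.55, 12.6 and 9.96 CPM in number 1 and 12.4, 9.85 and 10.8 CPM in number 3, so it was lower in number 1 in control and higher at the lower dose.

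Of 4 genes of the replication list that act on chromatin behind the fork or on histone messenger RNA (UHRF1, CHAF1A, CHAF1B and SLBP), 3 were higher in number 1 in all 3 groups. Of these, 2 did not overlap, and the median of the 4 was 0.20. CHAF1A, a subunit of the histone chaperone CAF-1, differed by 0.23 (SE 0.07), and CHAF1B, its partner, by 0.17 (SE 0.11) with control 1 below control 3. SLBP, which binds histone messenger RNA, differed by 0.07 (SE 0.06) and overlapped. UHRF1, which binds the hemimethylated DNA left by replication, measured 37.2, 42.0 and 41.3 CPM in number 1, 27.6, 30.1 and 32 CPM in number 2 and 29.8, 32.1 and 29.3 CPM in number 3 (number 1 over 3: 0.40, SE 0.07). Of the genes called higher outside the list, DNMT1, the methyltransferase that UHRF1 recruits, measured 105, 116 and 100.5 CPM in number 1 and 83.7, 83.8 and 88.4 CPM in number 3 (0.33, SE 0.06). ASF1B, a chaperone that hands histones to new DNA, measured 47.8, 53.2 and 50.9 CPM against 33.9, 40.2 and 38.9 CPM (0.43, SE 0.07). UHRF1, DNMT1 and ASF1B did not overlap between the numbers. On hg38 UHRF1 lies at chr19:4903080-4962154, DNMT1 at chr19:10133345-10231286 and ASF1B at chr19:14119509-14136956. TCF19, which is expressed late in the G1 phase and in S phase, measured 36.5, 41.6 and 40.6 CPM in number 1 and 31.4, 31.0 and 29 CPM in number 3. Transcripts of histone genes were hardly covered: 7 of 25 listed symbols passed the filter, with a median difference of 0.14.

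**Figure D2:**
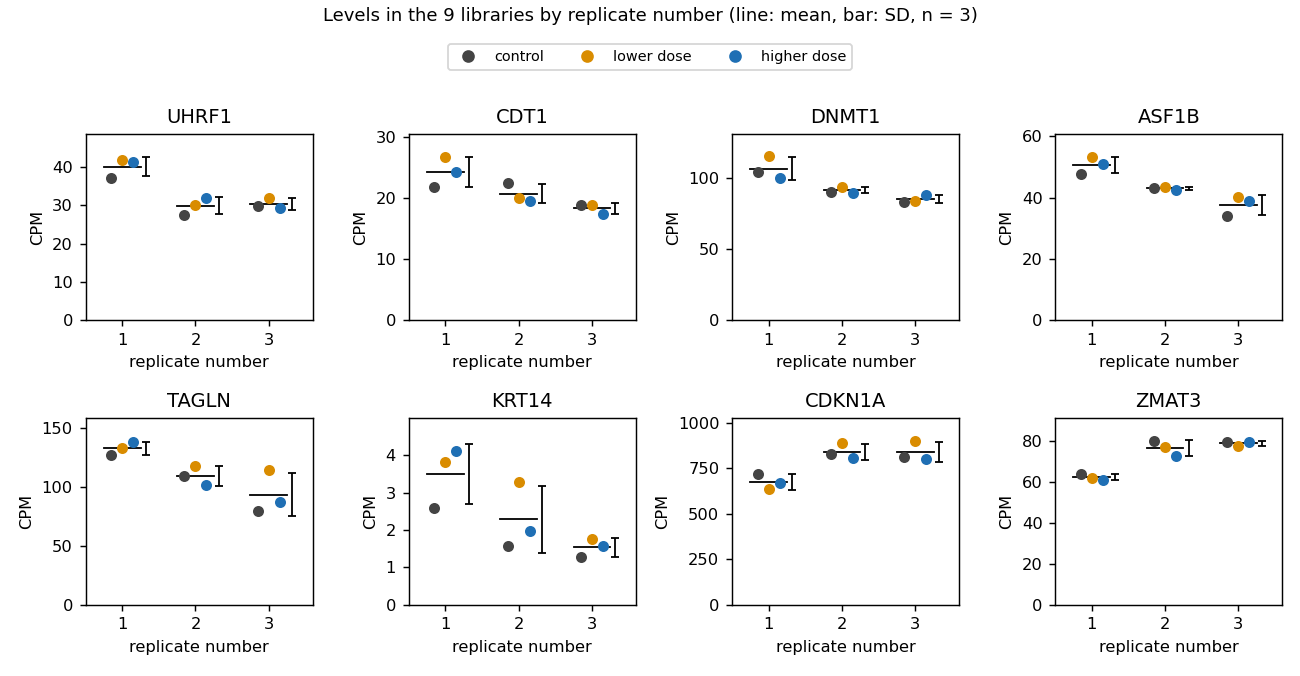
Level in CPM (vertical axis, from 0) of 8 genes in the 9 libraries by replicate number (horizontal axis); points are libraries coloured by treatment, the line is the mean and the bar the SD (n = 3). For UHRF1, ZMAT3 and CDKN1A the libraries numbered 2 lie with those numbered 3, and for ASF1B and TAGLN their mean lies between the means of numbers 1 and 3.

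Genes of mitosis were less even between the treatment groups. The 36 genes of a list of mitosis and the spindle checkpoint had a median difference of 0.12, with 0.19 in control, 0.24 at the higher dose and -0.04 at the lower dose. In all, 11 were higher in number 1 in all 3 groups, 10 without overlap, and none was called. Without the lower dose pair 19 of 36 were called higher (52.8%, against 3.54% of all genes in that fit). AURKB, the kinase of the chromosomal passenger complex, was higher in each group, with 48.9, 54.1 and 52.9 CPM in number 1 and 37.8, 44.6 and 41.8 CPM in number 3 (0.33, SE 0.07). CCNB1, the cyclin that drives entry into mitosis, measured 101, 90.1 and 95.7 CPM against 72.3, 94.0 and 77.7 CPM, so that the lower dose pair went the other way. MKI67, the proliferation marker, measured 319, 337 and 344 CPM in number 1 and 304, 302 and 311 CPM in number 3 (0.13, SE 0.05).

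Promoters of 3 genes of this list are shown for contrast with the E2F letters above. The CHR letters TTTGAA or TTCGAA, on either strand, occurred in 11.3% of all promoters, in 24 of 31 promoters of the mitosis list (77.4%) and in 2 of 38 of the replication list (5.26%). The E2F letters occurred in 3 of the 31 mitosis promoters (9.68%). The matching letters are in capitals. KIF23 is shown at chr15:69414248-69414347, CDC20 at chr1:43358870-43358969 and PLK1 at chr16:23678789-23678888, all on the plus strand of GRCh38.p14.
KIF23: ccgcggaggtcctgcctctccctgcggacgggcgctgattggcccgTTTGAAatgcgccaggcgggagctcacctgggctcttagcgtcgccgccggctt
CDC20: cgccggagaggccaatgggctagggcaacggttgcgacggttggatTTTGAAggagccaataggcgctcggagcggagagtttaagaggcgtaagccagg
PLK1: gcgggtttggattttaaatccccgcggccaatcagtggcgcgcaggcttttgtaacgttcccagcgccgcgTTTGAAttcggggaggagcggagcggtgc
KIF23, a motor of the central spindle, differed by 0.25 in control, 0.14 at the lower dose and 0.47 at the higher dose. CDC20, an activator of the anaphase-promoting complex, differed by 0.31, 0.13 and 0.29. PLK1, a kinase of mitotic entry, differed by 0.30, 0.08 and 0.23. For these 3 genes the lower dose pair gave the smallest difference.

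Genes that p53 activates lay on both sides. Of 25 genes kept from a list of p53 targets and inhibitors of cyclin-dependent kinases, 10 were lower in all 3 groups, 8 of them without overlap, and 3 were higher in all 3 groups. The list median was -0.09, with 0.05 in control, -0.23 at the lower dose and -0.07 at the higher dose, and it was -0.03 without the lower dose pair. ZMAT3, an RNA-binding target of p53, was the called member, with 63.8, 61.8 and 60.8 CPM in number 1, 79.9, 77.0 and 72.4 CPM in number 2 and 79.4, 77.4 and 79.5 CPM in number 3 (number 1 over 3: -0.34, SE 0.06). CDKN1A measured 721, 633 and 667 CPM in number 1, 827, 891 and 807 CPM in number 2 and 811, 902 and 800.4 CPM in number 3 (-0.31, SE 0.06). For both genes every library numbered 1 was below all 6 others. PMAIP1, a p53 target that promotes cell death, went the other way: 31.5, 30.7 and 29.5 CPM in number 1 and 29, 25.2 and 22.3 CPM in number 3 (0.27, SE 0.07). Without the lower dose pair CDKN1A, ZMAT3 and TP53INP1 were called lower (12% of the list), and PMAIP1 and GADD45A higher (8%). Over all genes of that fit 2.48% were called lower and 3.54% higher.

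Interferon genes were higher in number 1 in control and at the higher dose, and mostly lower in lower dose 1 than in lower dose 3. Both libraries of that pair could differ from the others of their number: OAS2 measured 221, 187 and 216 CPM in number 1 and 177, 217 and 162 CPM in number 3. The difference between groups was not tested. All 40 genes of the list passed the filter, and the median difference was 0.19 in control, 0.28 at the higher dose and -0.15 at the lower dose, where 9 of 40 were above 0 against 38 of 40 in each of the other groups. Over the 3 groups 8 were higher in every group and 1 was called, though not by DESeq2. Without the lower dose pair 27 of 40 were called higher (67.5%, against 3.54% of all genes in that fit). ISG15, a ubiquitin-like protein induced by interferon and the called member, measured 343, 338 and 345 CPM in number 1, 281, 352 and 268 CPM in number 2 and 216, 313 and 229 CPM in number 3 (number 1 over 3: 0.46, SE 0.08). The 3 libraries numbered 1 lay close together, whereas lower dose 3 was well above control 3 and higher dose 3. IFIT1, which binds viral RNA, measured 125, 96.6 and 129 CPM in number 1 and 85.7, 122 and 86.4 CPM in number 3. MX1, an antiviral GTPase, measured 568, 499 and 565 CPM against 436, 519 and 421 CPM.

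**Figure D3:**
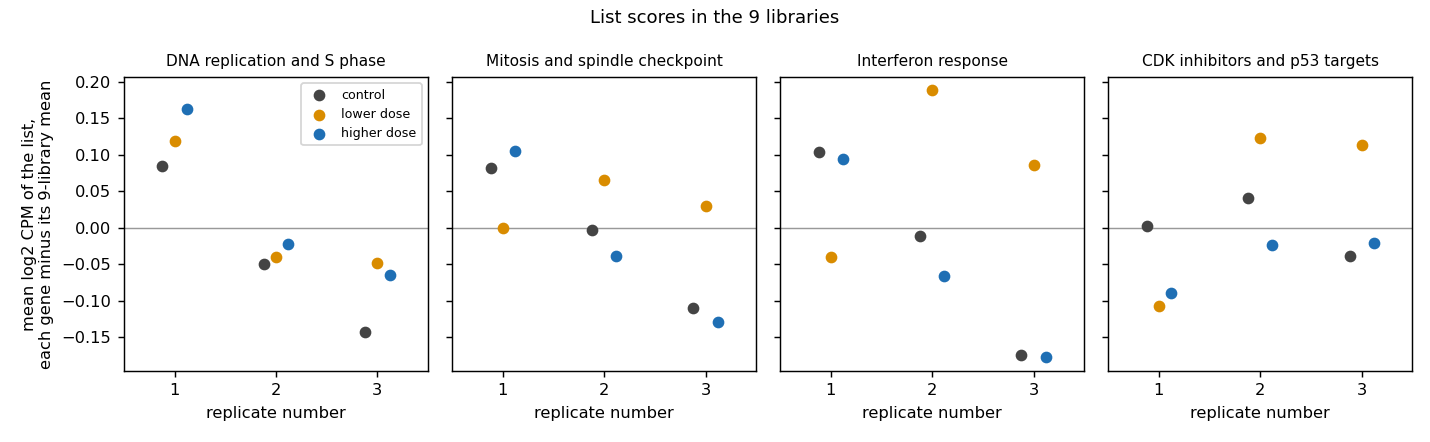
Score of 4 gene lists in each library: the mean over the list of log2 CPM after each gene's mean over the 9 libraries was removed (vertical axis), by replicate number (horizontal axis) and coloured by treatment. The S phase scores of the libraries numbered 1 (0.08, 0.12 and 0.16) are above 0 and the other 6 below it; in the interferon panel control 1 and higher dose 1 are the highest and control 3 and higher dose 3 the lowest of their groups, and lower dose 1 is the lowest of its group.

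Among the genes lower in number 1, GBP2, a GTPase induced by interferon gamma, was called, with 109, 103 and 103 CPM in number 1 and 131, 126 and 129.9 CPM in number 3 (-0.29, SE 0.05). CD74, the chaperone of MHC class II, was not called and measured 47.1, 53.1 and 50 CPM in number 1 and 72.3, 56.9 and 65.0 CPM in number 3 (-0.36, SE 0.08). HLA-DMA, which loads peptides on MHC class II, was not called either and measured 10.3, 9.33 and 10.2 CPM against 14.9, 11.9 and 14.9 CPM (-0.48, SE 0.10). No list of MHC class II genes was used, and the 20 genes of MHC class I and antigen processing had a median of 0.02. CFI, a protease of the complement system, was also lower in every library numbered 1 than in every library numbered 3 (-0.25, SE 0.06). The third gene called lower, ALDOA, a glycolytic enzyme, measured 21.7, 29.9 and 27.2 CPM in number 1 and 36.4, 34.8 and 37.5 CPM in number 3. Its RefSeq gene overlaps LOC112694756 on chromosome 16 (30053151 to 30070414), so its counts are uncertain. The other genes that the naming rule gave on this side were not called: EGR1, an immediate early transcription factor (-0.36, SE 0.07), HSPA4L, a chaperone related to HSP70 (-0.39, SE 0.08), CTSO, a lysosomal protease (-0.33, SE 0.08), FAM234B (-0.42, SE 0.09) and HPD, an enzyme of tyrosine breakdown (-0.60, SE 0.14).

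The 24 contractile and mesenchymal genes kept had a median of 0.05, with 7 higher and 3 lower in all 3 groups, and 1 called. By group the median was 0.0015 in control, 0.13 at the lower dose and 0.01 at the higher dose, and it was 0.0074 without the lower dose pair. TAGLN, the called member and an actin-binding protein of contractile cells, measured 127, 133 and 138 CPM in number 1, 109, 117 and 101 CPM in number 2 and 79.1, 114 and 87.2 CPM in number 3 (number 1 over 3: 0.52, SE 0.07). ACTA2, smooth muscle actin, measured 424, 486 and 451 CPM in number 1 and 384, 369 and 399 CPM in number 3 (0.24, SE 0.06). PDGFRA, a receptor of mesenchymal cells, went the other way in control and at the higher dose: 46.4, 51.7 and 52.8 CPM against 69.0, 52.0 and 67.5 CPM. Neither ACTA2 nor PDGFRA was called. Among the other genes called higher, MEGF6, a protein with EGF-like repeats, measured 109.9, 127 and 107 CPM in number 1 and 83.7, 94.3 and 83.2 CPM in number 3 (0.40, SE 0.05). The ligand WNT5B differed by 0.38 (SE 0.06), the glycine transporter SLC6A9 by 0.41 (SE 0.07), the lipase MGLL by 0.32 (SE 0.06) and the matrix protein CCN3 by 0.37 (SE 0.07). FSTL3, which binds activin, measured 218, 241 and 222 CPM in number 1 and 176, 195 and 189.7 CPM in number 3 (0.28, SE 0.05).

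Epithelial markers were uneven in level and direction. Of 15 epithelial markers listed, 13 were in the table and 9 passed the filter, with a median difference of 0.21. KRT14, a keratin of basal epithelia, measured 2.59, 3.81 and 4.11 CPM in number 1, 1.58, 3.28 and 1.99 CPM in number 2 and 1.27, 1.77 and 1.58 CPM in number 3 (number 1 over 3: 1.18, SE 0.22). KRT16, a keratin of activated epidermis, is not on the list and was a called gene outside the naming rule. It measured 5.75, 7.12 and 6.16 CPM in number 1 and 2.29, 4.73 and 2.76 CPM in number 3 (0.99, SE 0.18). KRT18, a keratin of simple epithelia that gives most of the summed level of the list, measured 1833, 1863 and 1875 CPM against 1684, 1697 and 1749 CPM. KRT19, also of simple epithelia, was lower in number 1, with 3.69, 3.86 and 4.26 CPM against 4.68, 4.38 and 4.88 CPM. KRT8 differed by 0.02 (SE 0.07) and CLDN4, at a mean of 0.86 CPM, by -0.29 (SE 0.41), both with mixed signs between the groups. Summed over the list, the level ran from 1931 to 1970.1 CPM in number 1 and from 1769 to 1842 CPM in number 3. CDH1, the adhesion protein E-cadherin, measured 5.70, 6.37 and 5.01 CPM in number 1 and 4.34, 5.07 and 4.14 CPM in number 3 (0.33, SE 0.16): it was higher in each group, and the numbers overlapped. MUC1, a mucin, and ELF3, an epithelial transcription factor, were also higher in each group with overlap (0.40, SE 0.23, and 0.27, SE 0.18). EPCAM and KRT5 had at most 2 counts in any of the 9 libraries, CLDN7 at most 6 and ESRP1 at most 5. A wider list of 30 kept genes of cell junctions and keratins, which shares members with the epithelial list, had a median of 0.01, with 4 higher and 5 lower in all 3 groups. The epithelial list was also among those that chose the comparison.

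Most markers of blood and endothelial cells were close to the detection floor. Of 18 blood and immune markers 4 passed the filter, and their summed level, set mainly by CD74 and CD68, ran from 102 to 116 CPM in number 1 and from 118 to 131 CPM in number 3. Among them LYZ had at most 2 counts and ITGAM at most 4 in any library. Of 10 endothelial markers 3 passed, with a summed level from 18.5 to 21.9 CPM in number 1 and from 21.9 to 22.6 CPM in number 3, and CDH5 had at most 2 counts. Whether cells of another type had a part in the differences was not tested.

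The lists of granulosa identity and of steroid synthesis held genes on both sides. FSHR measured 15.2, 16.1 and 17.6 CPM in number 1 and 22.2, 18.2 and 21.4 CPM in number 3 (-0.33, SE 0.09). STAR, which carries cholesterol into mitochondria for steroid synthesis, measured 24.8, 26.9 and 22.7 CPM against 31.0, 29 and 33.3 CPM (-0.32, SE 0.08). CYP19A1, the aromatase that makes oestrogen, measured 7.07, 6.52 and 8.06 CPM against 9.06, 8.28 and 8.24 CPM (-0.24, SE 0.13). For each of the 3 genes every library numbered 1 was below every library numbered 3. FOXL2 overlapped between the numbers, with 24.4, 29.4 and 24.7 CPM and 28.9, 25 and 28.2 CPM. The 20 granulosa genes kept had a median of -0.05, with 7 lower and 3 higher in all 3 groups. That median was -0.19 in control, 0.04 at the lower dose and -0.06 at the higher dose. The 21 genes of steroid synthesis kept had a median of -0.02, which ran from -0.03 to 0.03 over the alternatives, with 4 lower and 3 higher in all 3 groups. Without the lower dose pair FSHR, RUNX1 and KITLG were among the granulosa genes called lower, and FSTL3 and INHBB were called higher. On the list of steroid synthesis STAR and SCARB1 were called lower. Over all genes of that fit 2.48% were called lower and 3.54% higher.

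The lists of amino acid, cholesterol and hypoxia genes gave different medians in the 3 treatment groups. Of 26 genes that respond to amino acid shortage through ATF4, 6 were higher in number 1 in all 3 groups and none was called. Without the lower dose pair 12 were called higher (46.2%, against 3.54% of all genes in that fit). Calls of this smaller fit are not comparable with those over the 6 libraries. SLC7A5, a transporter of large amino acids, was higher in each group: 482, 537 and 505 CPM against 412, 469 and 408 CPM (0.25, SE 0.05). TRIB3, a pseudokinase induced by ATF4, differed by 0.40 in control, 0.02 at the lower dose and 0.37 at the higher dose. Among 24 genes of cholesterol synthesis and uptake, none was called over the 6 libraries. Without the lower dose pair 6 were called lower (25%, against 2.48% of all genes in that fit). HMGCS1, an early enzyme of that pathway, measured 235, 238 and 246 CPM in number 1 and 295, 236 and 282 CPM in number 3. Of 24 hypoxia genes, 7 were lower in all 3 groups, among them CA12, a carbonic anhydrase, with 26.1, 25 and 24.7 CPM against 31.4, 29.7 and 30.2 CPM. The list median of hypoxia genes was -0.23 at the lower dose and 0.03 and -0.04 in control and at the higher dose. Without the lower dose pair it was 0.02, with 5 hypoxia genes called higher (VEGFA, DDIT4, SLC2A1, ADM and LOX) and 1, CA12, lower. These were 20.8% and 4.17% of the list, against 3.54% and 2.48% of all genes in that fit. Ribosome biogenesis lay slightly higher in number 1: of 25 genes of MYC and ribosome biogenesis 9 were higher and 0 lower in all 3 groups, with a median of 0.06. NOP16, a nucleolar protein of the large ribosomal subunit, measured 14.4, 15 and 16.4 CPM in number 1 and 13.1, 11.4 and 12.2 CPM in number 3 (0.32, SE 0.10).

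Genes of the insulin pathway itself had small differences between the numbers. Of 41 genes of insulin and IGF signalling none was called, 5 were higher and 7 lower in all 3 groups, and the median was -0.01. By group that median was -0.06 in control, 0.05 at the lower dose and -0.05 at the higher dose. In the same order 13, 31 and 14 genes were above 0. The median was -0.04 without the lower dose pair. INSR, the insulin receptor, measured 12.7, 15.9 and 14.3 CPM in number 1 and 15.4, 14.8 and 15.8 CPM in number 3. IGF1R, the related receptor for IGF1, measured 67.8, 73.4 and 66.2 CPM against 70.9, 63.2 and 66.1 CPM. The adaptors IRS1 and IRS2, which carry the signal from both receptors, differed by -0.02 (SE 0.09) and 0.12 (SE 0.07). FOXO1, a transcription factor that insulin signalling holds out of the nucleus, was lower in every library numbered 1 (15.9, 14.7 and 16.9 CPM) than in number 3 (19.2, 19 and 19.9 CPM).

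Across genes, the difference in control and that at the higher dose ran together more than either did with the lower dose. Over the 10609 genes with at least 5 CPM, Pearson's r between the control difference and the higher dose difference was 0.24 (Spearman's rho 0.33). It was 0.02 between control and the lower dose and 0.12 between the 2 doses. These correlations are across genes, which are not independent replicates, and no p is given. The 441 genes called higher without the lower dose pair had a median difference of 0.25 there and 0.03 in the lower dose pair, where 57.1% of them were above 0, against 49.95% of all genes. The 309 called lower had medians of -0.23 and -0.0084, and 52.8% of them were below 0 in the lower dose pair, against 50.05% of all genes. Those genes were called from the control and higher dose libraries. The comparison itself was chosen on all treatment groups, the lower dose included, so these shares are a description and no separate check.

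**Figure D4:**
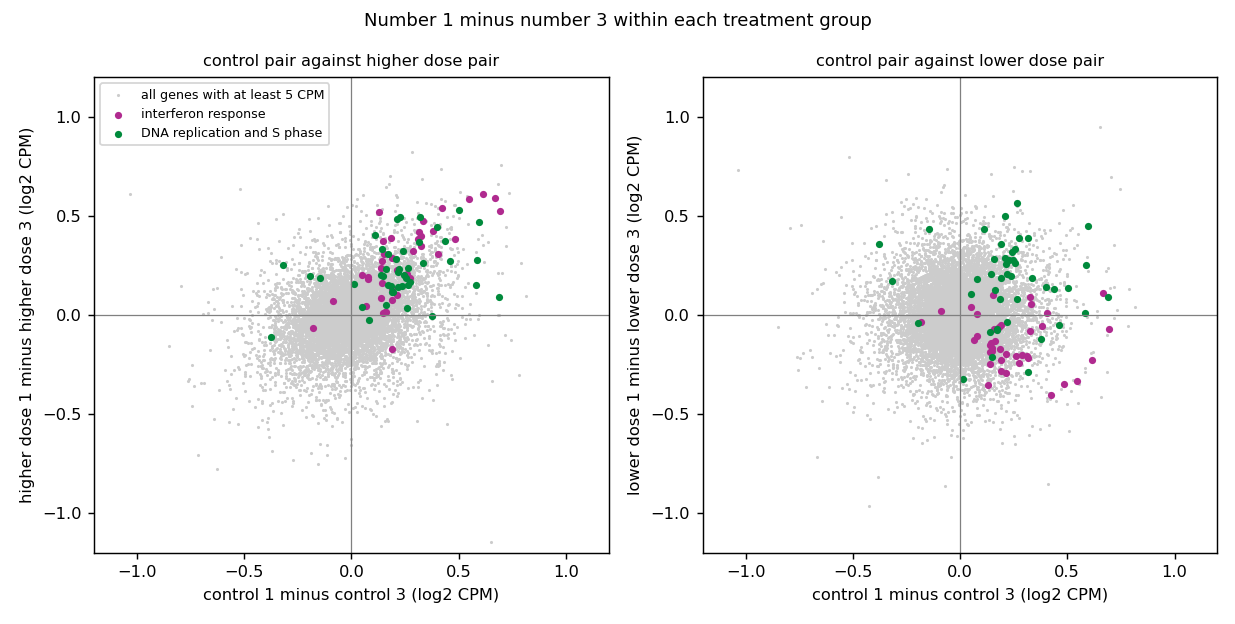
Log2 CPM difference of number 1 over number 3 per gene: control (horizontal axis) against the higher dose (left panel) and the lower dose (right panel), for the 10609 genes with at least 5 CPM (grey), the interferon list (purple) and the S phase list (green); 4 genes lie beyond the plotted range of 1.2. Interferon genes lie up and to the right in the left panel and mostly below 0 at the lower dose, and S phase genes lie mostly above 0 in both panels.

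The GC content of transcripts moved with the difference. Spearman's rho between the difference and the GC content of the longest coding transcript was 0.31 over 10424 genes, with 0.19 in control, 0.38 at the lower dose and 0.003 at the higher dose. The called higher genes had a median GC content of 58.4% against 48.0% over all genes, and the replication list 48.5%. After the trend with GC content was removed, an alternative chosen after seeing the data, the median of the replication list was 0.22 with 43 of 45 genes above 0, that of the mitosis list 0.14, that of the epithelial list 0.16 and that of the interferon list 0.12. Chromosome medians ran from -0.03 on X to 0.04 on 19, the latter with 0.09 at the lower dose and 0.01 at the higher dose. Where the trend with GC content came from was not tested.

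U2AF1, a splicing factor and a called gene outside the naming rule, measured 1.21, 27.1 and 9.81 CPM in number 1 and 1.41, 1.28 and 1.73 CPM in number 3, with 0.939, 0.975 and 6.16 CPM in number 2. It has a near-identical copy, U2AF1L5, which stood at 17.0 CPM in control 2 and at no more than 1.43 CPM elsewhere, so the split of reads between the copies is uncertain.

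The libraries numbered 2 also entered the choice, since it rested on number 1 exceeding both other numbers for these lists. The median of the replication list was 0.17 for number 1 over number 2, a sign the choice fixed, and 0.03 for number 2 over number 3. By treatment group the mean difference of the list was 0.15 in control, 0.15 at the lower dose and 0.18 at the higher dose for number 1 over 2, and 0.09, -0.00094 and 0.06 for number 2 over 3.

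The insulin comparisons are independent of the replicate number, because each treatment group holds each number once. Over all 9 libraries no gene of 12665 was called at the lower dose (0%) or at the higher dose (0%) against control by edgeR's quasi-likelihood F-test with Benjamini-Hochberg adjustment, and 770 and 298 genes had an unadjusted p under 0.05. DESeq2 also called 0 genes at each dose, with 562 and 172 genes at an unadjusted p under 0.05. Of the 45 replication genes none was called, and their median difference from control was 0.06 at each dose, with 35 above 0 at the lower dose and 39 at the higher dose. UHRF1 differed from control by 0.14 (SE 0.13, edgeR adjusted p = 0.843) at the lower dose and by 0.12 (SE 0.13, adjusted p = 1.00) at the higher dose. CDKN1A differed by 0.04 (SE 0.10) and -0.05 (SE 0.10). The gene of smallest p at both doses was LOC102724200, at 1.83 ± 0.776 CPM in control (SD, n = 3), 0.387 ± 0.233 CPM at the lower dose and 0.464 ± 0.103 CPM at the higher dose (edgeR adjusted p = 0.549 and 1.00). Next were LOC107987373 at the lower dose and IPMK, a kinase of inositol phosphates, at the higher dose, with 9.02 ± 1.08 CPM in control and 6.24 ± 0.447 CPM at the higher dose (edgeR adjusted p = 1.00). Over the 10609 genes with at least 5 CPM, replicate number held 28.4% of the variance and treatment 24.4%, each with 2 of the 8 degrees of freedom. Both shares are close to what 2 of 8 degrees of freedom hold on average without any effect, and neither was tested.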

How the data were processed

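RNA sequencing gave 9 libraries of KGN cells in 3 treatment groups of 3. The authors deposited raw read counts per gene symbol and FPKM values of the same genes; these deposited FPKM values served only for gene lengths. The submitters' processing notes name Trimmomatic, HTSeq and DESeq (no versions) and build hg38; aligner and strand setting are not given in the sources.

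TMM-scaled counts were fitted in edgeR 4.0.16 (quasi-likelihood F-test, treatment as a block, Benjamini-Hochberg, adjusted p under 0.05). The common biological coefficient of variation was 5.74%. CPM was scaled over all 9 libraries, and log2 CPM used a prior count of 2. The dose comparisons had no block and used 12665 genes (filterByExpr, minimum count 10, minimum total 15). Positions came from GENCODE 29 and RefSeq. The fits were tested on simulated data, with no result given here, so no error rate is claimed for the calls.

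The comparison, its 12584 genes and the 34 gene lists were chosen with earlier results of these data known. Named genes are the 12 of smallest p in each direction with at least 5 CPM, no overlap and one sign in all groups, 2 for each of the 12 lists with the largest medians, and 14 fixed symbols; other list members were picked after their values were seen. P-values measure the spread between these libraries, which may be technical. Alternatives were RLE size factors, DESeq2 1.42.0, limma 3.58.1, other filters, all 9 libraries, no treatment block, each library or group left out, and removal of length or GC trends.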

Additional observations from a re-analysis of the deposited data

Results flagged for a closer look

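For 10 pairs of treatment groups, at least 75% of the kept members of a list lay above 0 in one group and at most 25% in the other, for number 1 over number 3. Each group has 1 library per number, so these differences between groups were not tested. The difference of the 2 list medians is given.

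Interferon response genes differed by 0.34 between control and the lower dose (38 and 9 of 40 above 0) and by -0.43 between the lower and the higher dose (9 and 38 of 40). For proteasome subunits the values were 0.24 for control minus the lower dose (30 and 6 of 31) and -0.16 for the lower minus the higher dose (6 and 24 of 31). Cytosolic ribosomal protein genes differed by 0.22 between control and the lower dose (39 and 3 of 47) and by 0.12 between control and the higher dose (39 and 5 of 47). Between control and the lower dose, glycolysis genes differed by 0.24 (17 and 3 of 22), MHC class I and antigen processing genes by 0.18 (15 and 4 of 20), unfolded protein response genes by 0.12 (18 and 5 of 23) and cholesterol genes by -0.26 (4 and 23 of 24). The lower dose took part in 9 of these 10 differences.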

How the results depend on the processing

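The counts of called genes depended strongly on the libraries used. Against 14 genes higher and 3 lower in number 1, leaving out libraries one at a time, or one treatment group, gave 2 to 469 higher and 0 to 327 lower. All 17 calls were among those made without the lower dose pair. Without the control pair 1 of the 17 was called, U2AF1, whose split of reads between copies is uncertain. The other calls, among them UHRF1, TAGLN, DNMT1 and ZMAT3, were lost. The fit without a treatment block called 31 higher and 7 lower, all 9 libraries together 63 and 18, and no count filter 47 and 14. DESeq2 called 11 higher and 5 lower, with 480 genes at an unadjusted p under 0.05 against 1283; it shared 10 of the 17 calls, did not call UHRF1, ISG15, CCN3, TCF19 and ALDOA, and gave no adjusted p for KRT16 and U2AF1. Removal of length or GC trends gives no count of calls. The cause was not tested.

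The median of the replication list stayed between 0.21 and 0.23 over 18 settings, that of the interferon list between 0.04 and 0.24 and that of the mitosis list between 0.08 and 0.20. Every setting reused libraries of the comparison, and the replication list helped to choose it. These ranges therefore describe the libraries only. Of the results computed for single genes under the alternatives, 726 kept their side, 83 lost a call, 107 gained one and 53 moved, and no named value reversed in sign while called.

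For the doses, no count filter gave 6 genes at the lower dose and 3 at the higher dose, among low or duplicated genes such as U2AF1L5. Leaving out libraries one at a time gave 0 to 1 calls at the lower dose, the one being LOC107987373 without lower dose 3. Correlations of deviations from group means ran from -0.07 to 0.30 (median 0.02) for libraries of the same number, with 3 of 9 over 0.1. For different numbers they ran from -0.22 to 0.12 (median -0.02), with 2 of 18 over 0.1. Whether whole profiles were paired by number was not tested. The replicate block called 0 genes at either dose, with 971 and 343 genes at an unadjusted p under 0.05. Depth allowed no statement on genes under 0.158 CPM in a library.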
